A study of Danio rerio with 12 samples.

Results

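Genes whose products are typical of surface epithelium were followed in a study of the zebrafish pineal gland, the light-sensitive, melatonin-producing gland on top of the brain. They were 9: the keratin genes krt5, krt91, krt15, krt94 and krt18a.1, the claudin gene cldni, the E-cadherin gene cdh1, and the ictacalcin genes icn and icn2. All probe sets whose platform annotation gave exactly 1 symbol among these 9 names were taken, which gave 12 of the 15502 probe sets of the array that were not controls, for 9 of 8793 named genes. Krt91, icn and icn2 had 2 probe sets each and the other 6 genes had 1. The 9 genes had been chosen by their signals on these arrays, by light and by circadian time, so the values of both kinds are described without a test.

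The light group held 6 arrays from fish that had been kept in darkness since the evening before and then received a light pulse (12 W/m2) lasting 1 h until sampling. The dark group held 6 arrays from fish kept in the same darkness with no light. Before this darkness, the fish of both groups had lived in a light-dark cycle with 12 h of light. Each group had 1 array per time, every 4 h between CT2 and CT22, where CT counts hours of the circadian day and CT2 to CT10 fall in the subjective day. All fish were adults of both sexes, 0.5 to 1.5 years old, of the line Tg(aanat2:EGFP)Y8, which carries EGFP, a green fluorescent protein, under control of aanat2, whose enzyme times melatonin synthesis; the controls carried it too. Each array held RNA from 12 pooled glands removed under a fluorescence microscope.

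Keratins are the proteins of the intermediate filaments of epithelial cells, and type I and type II keratins assemble in pairs. E-cadherin joins neighbouring epithelial cells at adherens junctions, and claudins seal the tight junctions between them. Ictacalcins are small calcium-binding proteins of the S100 family, found in fish epithelia. The pineal gland of the zebrafish lies directly under the roof of the skull, which the skin of the head covers.

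The defining transcripts of the gland were present in every pool. The signal of aanat2 lay between 636 and 4681 in light arrays and between 586 and 2728 in dark arrays. Exorh, the pineal opsin gene, lay between 858 and 1966 in light arrays and between 720 and 2081 in dark arrays. The median signal of an array over all probe sets was 82.8 to 99.5 in light arrays and 70.3 to 94.7 in dark arrays. At every time it was higher in the light array. Pearson's r between arrays was 0.870 to 0.959. Transcripts added to the hybridisation mix as a control (18 probe sets) had a mean log2 signal of 10.27 to 11.18 in the 6 light arrays. In the dark arrays it was 10.59 at CT22 and 9.53 to 9.78 at the other 5 times, so CT22 was the only time at which the light and the dark array were alike in this control. The labels name no batch.

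Krt5, krt91, cldni, cdh1, icn2 and icn had fitted peaks between CT8.2 and CT11.4, whereas krt18a.1 was highest at CT18. For krt15 and krt94 the mean light difference (1.75- and 1.70-fold) exceeded the peak-to-trough span of the curve fitted to all arrays (1.29- and 1.44-fold). Single signals within a group varied more: krt15 spanned 2.37-fold in light and 1.82-fold in dark arrays, and krt94 1.53-fold and 4.90-fold. The amplitude of a fitted 24 h cosine is the distance from the mean to the peak. It was 1.66 ± 0.32 on the log2 scale for krt5 and only 0.18 ± 0.14 for krt15 (SE from limma, 12 arrays). All values below are deposited signals of single arrays, and each condition had 1 array, so a level at 1 time has no replicate. Differences and amplitudes were taken as log2(signal + 13), which understates those of weak probe sets.

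Krt5 encodes a keratin that in mammals marks the basal cells of stratified epithelium. Its signal in light arrays was 295 at CT2, 1057 at CT6, 4493 at CT10, 1848 at CT14, 1034 at CT18 and 515 at CT22. In dark arrays it was 867 at CT2, 2689 at CT6, 2959 at CT10, 3396 at CT14, 134 at CT18 and 522 at CT22. The lowest and highest of the 12 values were the dark array of CT18 and the light array of CT10, 33.5-fold apart, and the groups overlapped throughout the range.

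Krt91, another keratin gene, ran closely with krt5. In light arrays its signal was 112 at CT2, 634 at CT6, 1655 at CT10, 532 at CT14, 584 at CT18 and 226 at CT22. The dark arrays had 257 at CT2, 838 at CT6, 1045 at CT10, 1513 at CT14, 58.3 at CT18 and 231 at CT22. As for krt5, the highest dark value, at CT14, stood next to the lowest, at CT18. Over the 12 arrays the log2 values of krt5 and krt91 had r = 0.98.

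**Figure D1:**
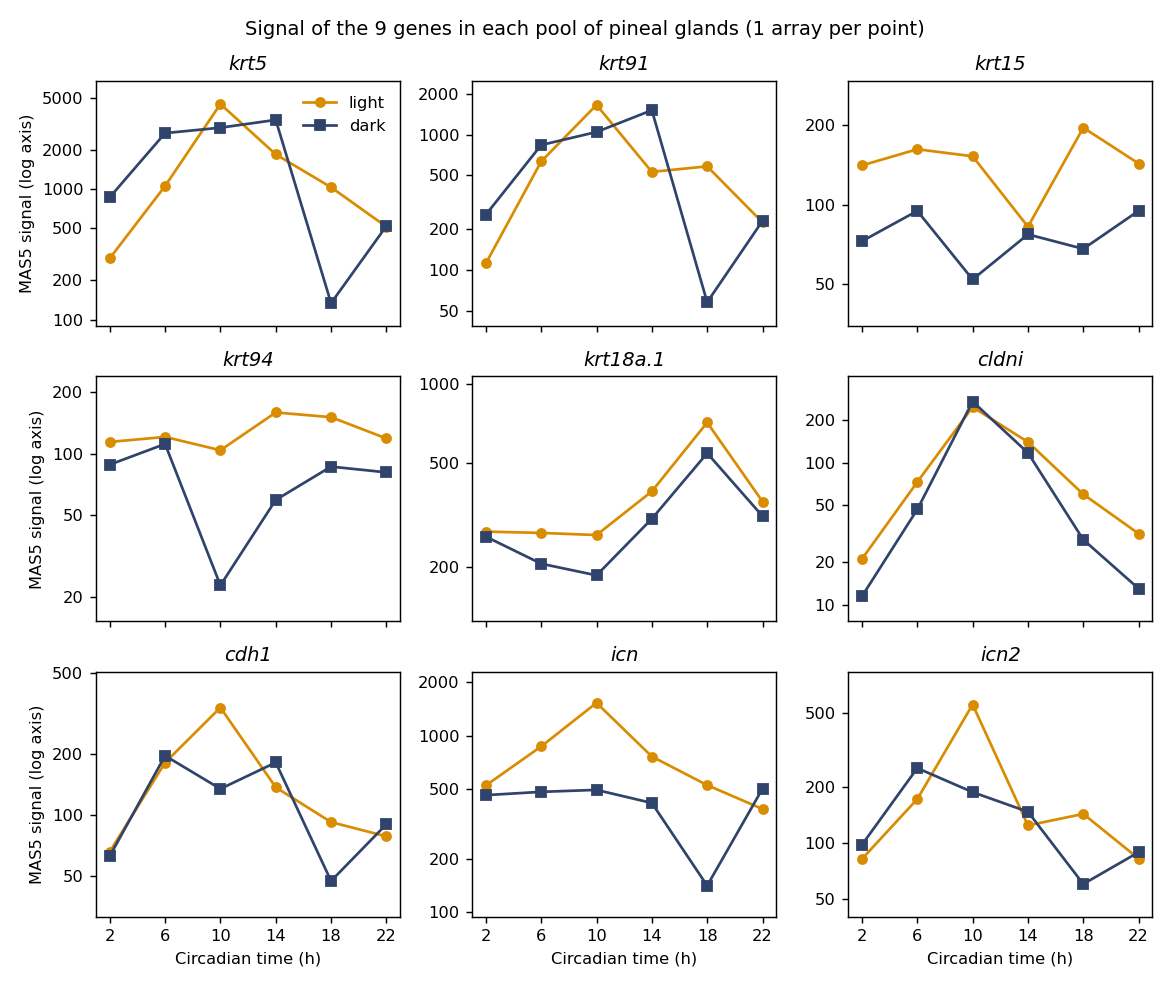
Deposited MAS5 signal (log axis, scale set for each gene) of the 9 genes against circadian time in hours, with 1 point per array (circles, light; squares, dark). Krt5, krt91, cldni, cdh1 and icn2 are high around CT10, the dark array of CT18 is the lowest of all 12 for krt5 (134) and krt91 (58.3), and krt18a.1 is highest at CT18 in both groups.

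Cldni, a claudin gene of fish epidermis, was the most regular of the 9 over the day. Its signal in light arrays was 21.1 at CT2, 73.0 at CT6, 245 at CT10, 139 at CT14, 59.9 at CT18 and 31.7 at CT22. In dark arrays it was 11.5 at CT2, 46.9 at CT6, 268 at CT10, 117 at CT14, 28.8 at CT18 and 13.1 at CT22. Both groups were highest at CT10 and lowest at CT2, and the dark values of CT2 and CT22 were near 13, the 10th percentile of all signals, so the low end of this pattern rests on weak signal.

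Cdh1 was lower in amplitude. Its signal in light arrays was 66.0, 181, 337, 137, 92.3 and 78.5 in order of time. The dark arrays had 62.8, 196, 134, 181, 47.4 and 90.1 at the same times. The highest value was again the light array of CT10 and the lowest the dark array of CT18.

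Icn and icn2 are neighbours on the same chromosome in the GRCz12tu assembly, next to the S100 genes s100w and s100a10b, and their probe sets may share targets. Icn in light arrays had signals of 522, 868, 1531, 761, 524 and 384 from CT2 to CT22. In dark arrays it had 460, 480, 493, 415, 141 and 500 at these times. By this probe set the dark pools were nearly level except at CT18, while the light pools had their maximum at CT10.

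Icn2 had signals of 82.2, 172, 556, 124, 143 and 82.5 in light arrays in order of time. In dark arrays it had 97.9, 253, 188, 147, 60.2 and 89.3. The light array of CT10 stood far above the other 11, and the dark array of CT18 was the lowest.

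For krt91, icn and icn2, the probe set with the higher mean stood for the gene, and in each case its name carries the suffix that Affymetrix gives to sets with probes that may bind other transcripts. The second probe set of each, without that suffix, can be set beside it: r between the 2 sets over the 12 arrays was 0.97 for krt91, 0.93 for icn and 0.90 for icn2. The second set of icn had 258, 373, 974, 610, 328 and 296 in light arrays and 244, 438, 337, 251, 90.8 and 322 in dark arrays. Its dark values were not level and were highest at CT6, but its extremes were in the same 2 arrays as those of the first set. The amplitude of icn2 was 0.47 ± 0.15 by the second set, against 0.87 ± 0.18 by the first.

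Krt18a.1 encodes a type I keratin of the kind that simple epithelia make. Its signal in light arrays was 273 at CT2, 270 at CT6, 265 at CT10, 389 at CT14, 712 at CT18 and 355 at CT22. In dark arrays it was 261 at CT2, 206 at CT6, 186 at CT10, 306 at CT14, 544 at CT18 and 313 at CT22. Both groups had their maximum at CT18 and their minimum at CT10, the time at which cldni had its maximum in both groups.

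Krt15 and krt94, a further pair of keratin genes, lie in 1 cluster of keratin genes, with krt98 between them in GRCz12tu. Krt15 had signals of 141, 162, 152, 82.6, 195 and 143 in light arrays from CT2 to CT22, against 72.8, 94.8, 52.2, 77.2, 68.1 and 94.8 in dark arrays. Krt94 had 114, 121, 104, 159, 151 and 119 in light arrays, against 88.5, 112, 22.8, 59.5, 86.6 and 81.2 in dark arrays. Each was higher in the light array at every time, but the groups overlapped, since the lowest light value lay below the highest dark value for both. In the dark array of CT10, krt15 and krt94 were at their lowest while cldni was at its highest.

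The fitted curves put these patterns on 1 scale. The peak of the cosine fell at CT10.1 for krt5, CT10.3 for krt91, CT11.4 for cldni, CT9.7 for cdh1, CT9.3 for icn2 and CT8.2 for icn. For krt18a.1 it fell at CT18.4, with an amplitude of 0.61 ± 0.11. The amplitude was 1.52 ± 0.31 for krt91, 1.54 ± 0.17 for cldni, 0.82 ± 0.17 for cdh1, 0.87 ± 0.18 for icn2 and 0.63 ± 0.18 for icn, against a median of 0.20 over the 9301 probe sets kept by the filter on low signals. All 12 probe sets passed this filter.

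Leaving out both arrays of 1 time moved these amplitudes by different amounts. That of krt5 lay between 1.50 and 2.07, that of krt91 between 1.38 and 1.93 and that of cldni between 1.26 and 1.75. That of cdh1 was no lower than 0.75, while that of icn2 lay between 0.67 and 1.03 and that of icn between 0.45 and 0.82. The amplitude of krt18a.1 was 0.38 without CT18, the time of its highest signals, and between 0.56 and 0.74 without any other time. Without the dark array of CT18 alone, krt5 had an amplitude of 1.48 and icn of 0.46. Without the light array of CT10 alone, icn2 had 0.64 and cdh1 0.70.

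Fitted to 1 group at a time, the peaks of some genes lay at nearly the same hour in both groups and those of others did not, and these differences were not tested. Krt5 peaked at CT11.8 with an amplitude of 1.64 in light arrays, and at CT8.7 with 1.96 in dark arrays. Cldni peaked at CT11.6 with 1.36 in light arrays, and at CT11.2 with 1.72 in dark arrays. Krt18a.1 peaked at CT17.8 with 0.60 in light arrays, and at CT18.9 with 0.62 in dark arrays. Icn peaked at CT9.8 with 0.86 in light arrays, and at CT5.7 with 0.58 in dark arrays. Krt94 peaked at CT16.6 with 0.21 in light arrays, and at CT23.7 with 0.54 in dark arrays.

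Over the 12 arrays the 9 genes had unlike patterns. Among krt5, krt91, cldni, cdh1, icn and icn2, r over the 15 pairs was 0.51 to 0.98. Krt18a.1 had a negative r with each of these 6, from -0.47 with krt5 to -0.22 with cldni, and in GRCz12tu only krt8 lies between krt5 and krt18a.1. With krt5 it was -0.03 in the 6 light arrays and -0.84 in the 6 dark arrays, and with krt91 it was 0.04 in light arrays and -0.77 in dark arrays. Krt15 and krt94 had r = 0.69 with each other over all 12 arrays, but -0.35 within the light arrays and 0.80 within the dark arrays. With krt5 they had -0.07 and -0.24. The first 6 genes were grouped after their values had been seen, and all points share the arrays, the scaling and the times of day.

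**Figure D2:**
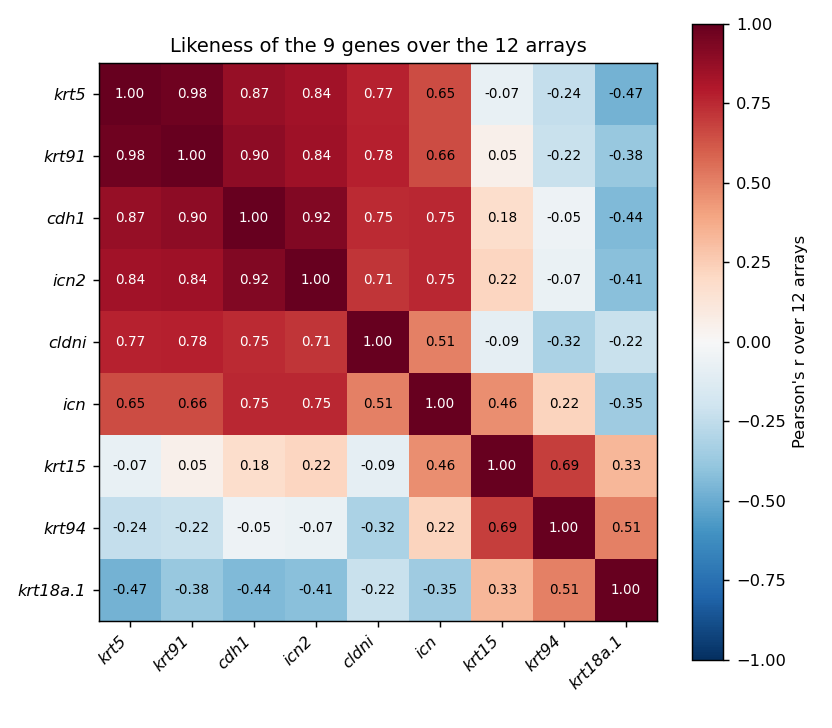
Pearson's r between the log2(signal + 13) values of each pair of the 9 genes over the 12 arrays, as a colour scale with the value printed in each cell. The 6 genes at the upper left have r of 0.51 to 0.98 with one another, and krt18a.1, in the last column, has a negative r with all 6.

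The light pulse was set against darkness at the same circadian time, to ask which transcripts differ after 1 h of light. Icn, krt15 and krt94 had the largest mean differences of the 9, near 0.8 log2. Over the 6 times, icn differed by 0.82 ± 0.25 (SE from limma, n = 6 pairs, 1.76-fold). By its second probe set it differed by 0.70 ± 0.26. That set was higher in light at 4 of the 6 times, against 5 by the first, and at CT6 it differed by -0.23, against 0.84. Krt15 differed by 0.81 ± 0.20 (1.75-fold) and krt94 by 0.76 ± 0.22 (1.70-fold). Each SE of a light difference borrows from the spread of all kept probe sets, so it is not that of the 6 differences alone. The SD of those differences was 0.83 for icn, 0.49 for krt15, 0.61 for krt94, 1.63 for krt5 and krt91, and 0.15 for krt18a.1. Krt18a.1 differed by only 0.30 ± 0.13 but with the least scatter, between 0.06 and 0.48 at the 6 times. The median over all kept probe sets was 0.02.

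For krt15, the light minus dark difference was 0.84 at CT2, 0.70 at CT6, 1.34 at CT10, 0.08 at CT14, 1.36 at CT18 and 0.53 at CT22. For krt94 it was 0.33, 0.10, 1.71, 1.25, 0.72 and 0.48 at these times. Krt15, krt94 and krt18a.1 were higher in light at all 6 times, as were 5.97% of the kept probe sets. In none of the 9 genes were all light values clear of all dark values, which was so in 1.23% of the kept probe sets.

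**Figure D3:**
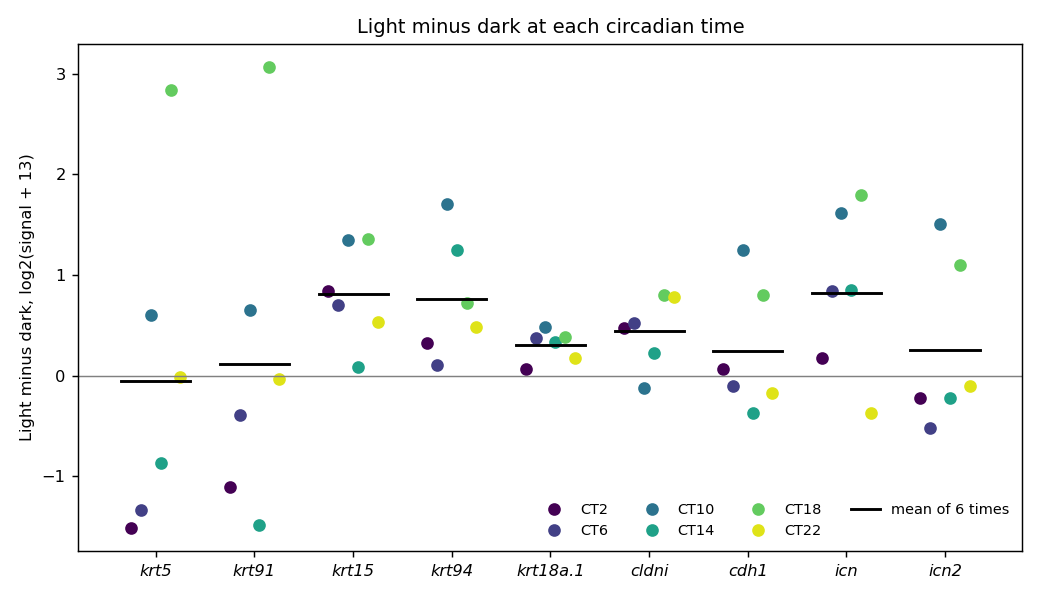
Light minus dark difference in log2(signal + 13) for each of the 9 genes, with 1 point for each circadian time (colours) and a bar at the mean of the 6 times. Krt15, krt94 and krt18a.1 lie above 0 at every time, while krt5 and krt91 spread from below -1 to about 3 with means of -0.05 and 0.12.

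In krt5 and krt91 the light difference had no common sign over the day. It was -1.51 at CT2, -1.34 at CT6, 0.60 at CT10, -0.87 at CT14, 2.83 at CT18 and -0.02 at CT22 for krt5, with a mean of -0.05 ± 0.44. For krt91 the mean was 0.12 ± 0.44 and the values lay between -1.49 at CT14 and 3.07 at CT18. Without CT18, where the dark array held their lowest signal, the mean was -0.63 for krt5 and -0.47 for krt91. The mean of krt5 was positive without CT2 (0.24), CT6 (0.21) or CT14 (0.11), so neither gene had a settled direction.

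Cldni, cdh1 and icn2 differed by 0.45 ± 0.20, 0.24 ± 0.22 and 0.26 ± 0.26. Without CT10, cdh1 was at 0.04 and icn2, by its first probe set, at 0.01. By its second probe set icn2 differed by 0.37 ± 0.21 over the 6 times. It was higher in light at 5 of them by that set, with 0.94 at CT18, against 2 by the first set. At CT22, where the light and dark arrays had nearly the same level of the hybridisation control, cldni differed by 0.78, krt15 by 0.53, krt94 by 0.48, and krt18a.1 by 0.18. At that time krt5 differed by -0.02, krt91 by -0.03, icn2 by -0.10, cdh1 by -0.17 and icn by -0.37. By these probe sets 4 genes were higher and 5 lower in light, each from a single pair of arrays. By the second probe sets krt91 differed by 0.46, icn2 by 0.28 and icn by -0.12 at CT22. The sign for krt91 and icn2 at that time thus depended on the probe set. Over the 12 arrays the control level had r = 0.71 with krt94, 0.60 with krt15 and 0.51 with icn, and between -0.06 and 0.36 with the other 6. With the control level as a covariate, the light difference was 0.94 ± 0.36 for krt15, 0.33 ± 0.38 for krt94 and 0.07 ± 0.39 for icn (SE from limma). The control was lower in 5 of the 6 dark arrays than in every light array. Light and control level can therefore hardly be told apart in this fit or in these r values. The part of this control in the light differences was not tested beyond these values.

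Whether the light difference varied over the day, for which the genes had not been chosen, was tested by letting the cosine curve differ between light and dark. No gene of the 9 passed (adjusted p between 0.551 and 0.996 by limma), 0 had an unadjusted p under 0.05, and 0% of the 9301 probe sets passed, with 864 under an unadjusted p of 0.05. In simulated data the test found 89.5% of curves that differed by 2 log2 units but 0% of those that differed by 1. The changed probe sets of the simulation were drawn at random from all kept ones, whose median SD over the arrays was 0.34. That of the 9 genes was 0.53 to 1.51, so these rates need not hold for them and the test cannot exclude a large difference.

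Other genes of epithelia were read from 3 lists, of further keratins, of cell junctions, and of epithelial identity and surface proteins, which held 121 names. Of these, 76 had a probe set and 47 passed the filter. The lists were drawn up with earlier results of these data known, and some members come from those results. Their counts and p-values therefore describe these data and are no independent test. None of the 47 passed an adjusted p of 0.05 for light in limma, against 2.31% of the kept probe sets (1.58% higher and 0.731% lower in light). At an unadjusted p under 0.05 there were 7 of the 47, against 1624 of the 9301. The light difference was positive in 38 and negative in 9, with a median of 0.16, against 50.8% positive and a median of 0.01 over all 6025 kept genes. The median signal of an array was also higher in light at every time. Its part in such counts, here and below, was not tested. For circadian time 2 of the 47 passed (4.26%), against 1.98% of the kept probe sets. With an unadjusted p under 0.05 by limma there were 18 of the 47, against 1398 of the 9301. The first to pass was f11r.1, of the junctional adhesion molecules of tight junctions (amplitude 0.91 ± 0.16, peak CT9.2, adjusted p = 0.0139 by limma). The other was tjp2b, a tight junction scaffold (0.55 ± 0.11, CT12.8, adjusted p = 0.0373 by limma). The fitted peak lay between CT6 and CT14, a window set after the values were seen, in 32 of the 47 genes, against 32.8% of all kept genes.

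Among the further keratins, krt97 had a signal of 211 to 1707 in light arrays (median 547) and of 81.2 to 1254 in dark arrays (median 518), and krt8, the type II keratin that pairs with keratin 18 in simple epithelia, had 297 to 608 in light arrays (median 336) and 289 to 411 in dark arrays (median 346). The r of krt8 with the mean of the 9 genes was -0.12, and that of krt97 was 0.92. Krt18b, the third by mean signal, had medians of 245 in light arrays and 225 in dark arrays. All 6 kept keratins of the list had a positive light difference, against 50.8% of all kept genes. None passed for light or time, against 2.31% and 1.98% of the kept probe sets.

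The 3 genes of highest mean signal in each other list were named by rule, which sets no transcript level against another. Of the junction list these were cldng, ctnnb1 (beta-catenin) and perp, with r of 0.05, -0.22 and 0.62 with the mean of the 9 genes. Of the surface list they were ahnak, s100u and anxa1a, with r of 0.72, 0.69 and 0.77. Epcam, the epithelial cell adhesion molecule gene, lay between 54.4 and 193 in light arrays and between 35.9 and 173 in dark arrays, with r = 0.88. It was singled out after its values were seen. The name of its probe set begins with the same number as those of icn and icn2. These sets may share targets, and the mean of the 9 genes holds both icn and icn2.

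Of all named genes outside the 9, the 12 most like their mean z-score were named (Pearson's r over 12 arrays). The desmosomal cadherin dsg2.1 came first (r = 0.96), followed by the plakophilin pkp3a (0.92) and the plakin periplakin, ppl (0.92). Next were prrg2 (0.91), si:ch1073-340i21.3 (0.90), si:ch211-207n23.2 (0.90), the claudin gene cldn7b (0.89), si:dkey-238c7.13 (0.87), the cofilin relative cfl1l (0.87), mid1ip1a (0.85), cldnb (0.84) and krt97 (0.84). The order depends on the measure: with the mean log2 deviation in place of the z-score, r was 0.93 for cfl1l, 0.92 for krt97, 0.92 for dsg2.1 and 0.92 for pkp3a. Dsg2.1 had signals of 82.1 to 490 in light arrays and 34.3 to 158 in dark arrays. Krt18a.1 alone was most like rhoub (0.91), rgcc (0.91), rpe65a (0.90), cdc42ep3 (0.90) and the clock repressor gene bhlhe41 (0.90). Rpe65a, of the retinoid isomerase family of the visual cycle, lay between 1878 and 10910 in light arrays and between 2098 and 6726 in dark arrays.

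The mean of the 9 genes and of each other epithelial list was lowest in the same pool. The same pool was also the lowest for the leukocyte list and for the pineal and photoreceptor list, described below. Scored as the mean log2 deviation of a list's genes from their 12-array means, the 9 genes were highest in the light array of CT10 (1.23) and lowest in the dark array of CT18 (-1.13). In that light array the further keratins were at 0.48, the junction genes at 0.68 and the identity and surface genes at 0.45. In that dark array they were at -1.27, -0.65 and -0.69, although krt18a.1 had its highest dark signal there. In the dark array of CT22 the 9 genes were at -0.52, against -0.18 for the junction genes, 0.04 for the further keratins and 0.16 for the identity and surface genes. Over the 12 arrays r with the 9 genes was 0.97 for the junction list, 0.81 for the further keratins and 0.81 for the identity and surface list. Without these 2 arrays it was 0.94, 0.71 and 0.63 over 10 arrays. In pooled tissue, fewer epithelial cells in a pool and less RNA per cell cannot be told apart.

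**Figure D4:**
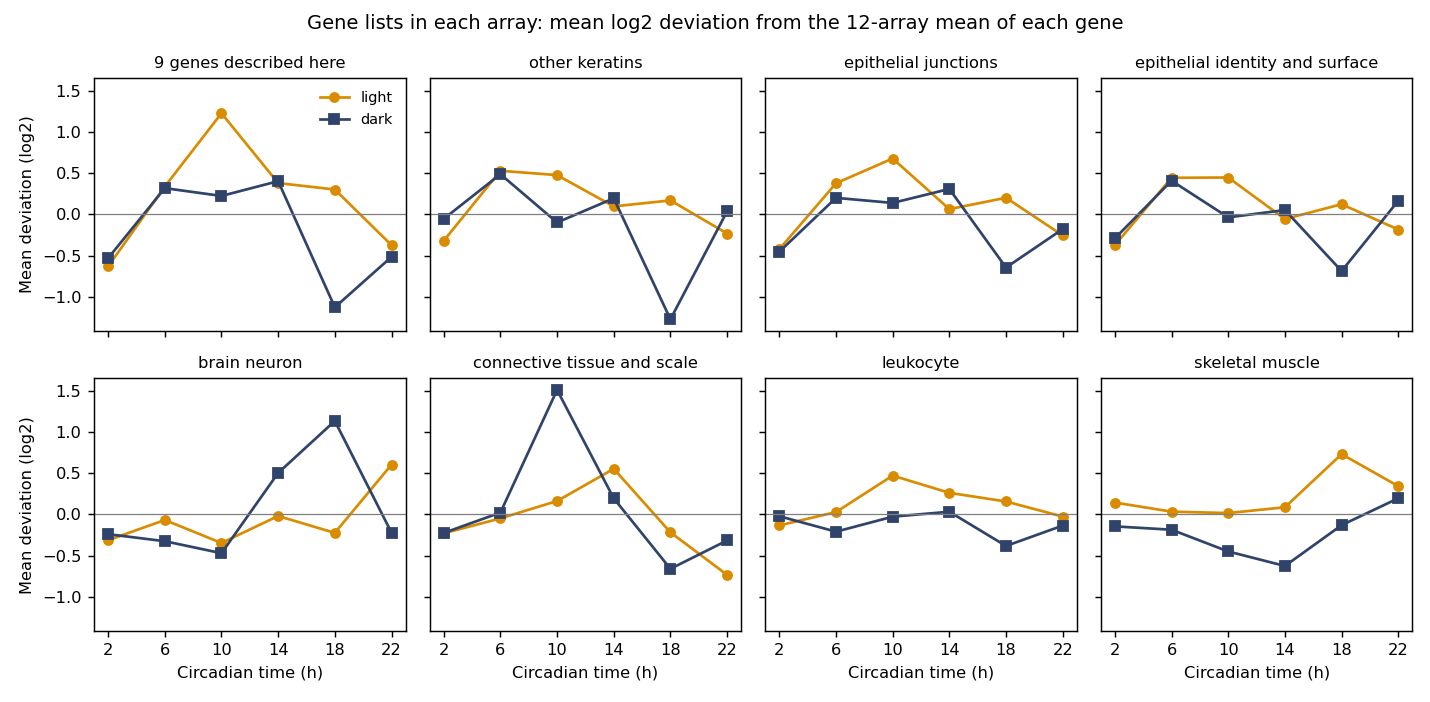
Mean log2 deviation of each list's genes from their own 12-array means against circadian time in hours, with 1 point per array (circles, light; squares, dark). The 9 genes and the 3 epithelial lists dip together in the dark array of CT18, where the leukocyte list is at -0.38 and the brain neuron list at 1.13. The brain neuron list is also at 0.50 in the dark array of CT14, where the 9 genes are at 0.40. The connective tissue list is at 1.51 in the dark array of CT10.

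Markers of other tissues also differed between pools. Their lists, those of connective tissue, muscle and leukocytes among them, were likewise drawn up with earlier results known. Counts and p-values from them are no independent test. Of 13 kept brain neuron genes the summed signal was 12536 to 26057 in light arrays and 12018 to 27846 in dark arrays. Their score was 1.13 in the dark array of CT18, the array in which the 9 genes were lowest. It was also 0.50 in the dark array of CT14, where the 9 genes had their highest dark score (0.40). In the light array of CT22 it was 0.60, with the 9 genes at -0.37. The light minus dark score at CT18 was 1.43 for the 9 genes, -1.36 for brain neuron genes, -0.86 for oligodendrocyte genes and 0.51 for pineal and photoreceptor genes. For muscle genes it was 0.86, near the 0.85 of the junction list. It was also positive for leukocyte (0.54), endothelium (0.47), red blood cell (0.46) and connective tissue genes (0.44), and -0.09 for astroglia. In the dark array of CT18 itself, connective tissue genes were at -0.66. Leukocyte genes (-0.38) and pineal and photoreceptor genes (-0.36) had their lowest score of all arrays there. Muscle and red blood cell genes were at -0.13, endothelium at 0.10, astroglia at 0.24 and oligodendrocyte genes at 0.79. Over all arrays the r of the brain neuron list with the 9 genes was -0.46, and without the dark array of CT18 and the light array of CT10 it was 0.07.

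The 13 kept genes of connective tissue and scale had a score of 1.51 in the dark array of CT10, against 0.16 in the light array of that time. Their summed signal was 1880 to 4087 in light arrays and 2181 to 13175 in dark arrays. Of the 13, 11 had a fitted peak between CT6 and CT14, the window set after the values were seen, against 32.8% of all kept genes. For time 2 of the 13 passed, against 1.98% of the kept probe sets. These were postnb, a matrix protein gene (amplitude 1.37 ± 0.18, adjusted p = 0.00220 by limma), and fgfbp2a (1.90 ± 0.23, adjusted p = 0.00121 by limma). In that dark array col1a1a, a chain of type I collagen, reached 4016, against a dark median of 247; it did not pass and was singled out after its values were seen. The 9 genes were at 0.22 there, so this pool was high in connective tissue transcripts without being the highest in those of epithelium. Over the 12 arrays, however, the r of this list with the 9 genes was 0.52. It was also 0.52 without the dark array of CT18 and the light array of CT10. By gene, r was 0.82 for postnb, 0.82 for fgfbp2a and 0.32 for col1a1a, and the lowest was -0.59 for fn1a.

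All 11 kept muscle genes had a positive light difference, against 50.8% of all kept genes. Their summed signal was 1109 to 2091 in light arrays and 666 to 1252 in dark arrays. Of the 11, only acta1a, a skeletal muscle actin, passed for light (1.30 ± 0.21, adjusted p = 0.00872 by limma), against 2.31% of the kept probe sets. Only actc1b, a cardiac-type actin gene, passed for time (amplitude 0.61 ± 0.13, peak CT21.1, adjusted p = 0.0441 by limma), against 1.98% of the kept probe sets. The r of the muscle list with the 9 genes was -0.09. Of 11 kept leukocyte genes the summed signal was 3140 to 7451 in light arrays and 2930 to 5596 in dark arrays, with r = 0.82 with the 9 genes, or 0.49 without the 2 extreme arrays. The part of any of these tissues in the values of the 9 genes was not tested. No gene kept in these lists was listed at 0 in any array.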

How the data were processed

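Signals of 12 zebrafish pineal arrays were analysed, 6 after light and 6 from darkness, 1 per circadian time. The deposited values are intensities, linear MAS5 signals made with GCOS per the submitters' processing notes, which give no versions; per the labels' protocols, RNA was amplified in 2 rounds from an oligo(dT) primer, which favours 3' ends. A trimmed mean of 199.9 on every array shows that the authors scaled the arrays alike. No detection calls were used here, and the number of arrays limits the precision.

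From these values log2(signal + 13) was computed, 13 being the 10th percentile. Probe sets with a mean at or above the 40th percentile (6.16; signal 58.3) were kept, 9301 in all, for 6025 genes. Names come from probe sets with 1 symbol (10795 of 15502; 135 had several and 4572 none), updated through the GRCz12tu gene table, where 10711 matched. The probe set with the highest mean stood for a gene.

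The tests used limma 3.58.1 under R 4.3.3 (eBayes with trend on lmFit, two-sided, Benjamini-Hochberg over 9301). They fitted light against dark with circadian time as a block, which the labels' times give (5 residual degrees of freedom), a 24 h cosine beside light (8), and light by cosine (6). The p-values measure spread over times and pools. Where 200 of 9301 simulated probe sets, drawn at random, were changed, 69.5% and 99.5% of light differences of 1 and 2 log2 units were recovered. For amplitudes of 1 and 2 log2 units it was 93% and 99.5%.

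The 9 genes and all lists were chosen with earlier results of these data known, and some list members come from those results. Named were all 9 genes; called genes and the 3 brightest of each epithelial list; the 12 genes most like the 9 and the 5 most like krt18a.1; called muscle and connective tissue genes; and aanat2 and exorh. Genes named beside this rule are marked in the text. Other settings were tried for each fit, and 2 omissions of single arrays were added after the data had been seen. Of the remaining marker lists, astroglia (9 kept genes), red blood cell (10) and endothelium (4) had r of -0.15, 0.09 and 0.16 with the 9 genes, and oligodendrocyte (6) and pineal (21) -0.53 and 0.35. No sequences or chromosome positions are given.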

Additional observations from a re-analysis of the deposited data

Results flagged for a closer look

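In dark arrays, icn stood apart at CT18. Its lowest dark value (141) was separated from the next by a gap of 0.849 of the group's range on the log2 scale, above Dixon's critical value of 0.625 for 6 samples. In light arrays, icn2 stood apart at CT10, where its highest value (556) was separated by 0.627 of the range. In groups of like samples that value is passed in about 1 of 20, and 18 groups were examined. This rate does not hold for genes chosen by their signals over time, so both gaps are described without a test. The samples of a group here are of different times of day, so a gap of this kind is not a difference between replicates. Both gaps come from the probe set that stood for the gene. By the second set of icn the dark value of CT18 was 90.8, with the others from 244 to 438. By that of icn2 the light value of CT10 was 193, with 106 next and 45.1 the lowest. Each stood less far apart by the second set, for which no gap was measured.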

How the results depend on the processing

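Over all probe sets the number passing for light was 215, and it was 8 with the hybridisation control level as a covariate, 127 with no replicate block, and 71 to 351 when 1 time point was left out. The number passing for circadian time was 184, and it was 48 to 121 when 1 time point was left out, 20 from dark arrays alone, 23 from light arrays alone, and 114 without the light array of CT10 (131 without the dark array of CT18). For light by circadian time 0 passed, 1 did with the control level as a covariate, and 0 to 1 when a time point was left out. Of the 9 genes, the light difference of krt5 was 0.00446 after quantile normalization and -0.63 to 0.24 when 1 time was left out, and that of krt91 was -0.47 to 0.44, so neither had a settled direction; the cause was not tested. The other 7 kept their direction under the alternatives that gave a value, and krt15, krt94, cldni and cdh1 did not pass the filter at the 60th percentile. After quantile normalization the light difference was 0.68 for krt15, 0.66 for krt94, 0.31 for cldni, 0.17 for icn2 and 0.14 for cdh1, each lower than before. For icn it was 0.86 and for krt18a.1 0.33. The amplitude of cldni was 1.03 with a pseudocount of 50, and with a pseudocount of 1 cldni did not pass the filter. Times were paired by the labels, and leaving out the block moved only the calls, not the mean differences.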

Other observations

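Among the leukocyte genes, those that ran most closely with the 9 epithelial genes were cd74b (r = 0.88), cd74a (0.76) and coro1a (0.75), chosen after their values were seen. Cd74a and cd74b encode the invariant chain of antigen-presenting cells, and coro1a, which lies beside cldni in GRCz12tu, an actin-binding protein of blood cells. Cd74b lay between 483 and 1489 in light arrays (median 700.4) and between 365 and 1298 in dark arrays (median 736). Cd74a, from a list drawn up with earlier results known, passed for circadian time (amplitude 0.62 ± 0.13, peak CT10.6, adjusted p = 0.0487 by limma). It was the only one of the 11 kept leukocyte genes to pass for time, against 1.98% of the kept probe sets. Ptprc and spi1b, which are also leukocyte genes, had r of -0.07 and 0.08 with the 9 genes. For c1qc, lyz, laptm5 and mmp9 it was 0.08, 0.09, 0.10 and 0.20, and for arpc1b and lcp1 0.43 and 0.61. Cd74a and cd74b had the highest mean signals of the list (2241 and 790), so its summed signal rests largely on them.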
